A study of Mus musculus with 12 samples.

Results

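The genes described here are the C-type lectin genes whose symbol begins with Clec and a digit, and the Siglec genes, of mouse bone marrow derived macrophages profiled for open chromatin by ATAC-seq. They were taken by symbol from the authors' peak annotation, with Clec10a and Siglech left out, which gave 197 of 139999 peaks and 37 of 19395 genes. Of these, 32 genes with 156 peaks were Clec genes and 5 genes with 41 peaks were Siglec genes. Each phase of the experiment held 2 groups of 2 libraries, 12 libraries in all. In the first phase the groups were diabetic and healthy cells. In the rest phase and again in the second phase they were diabetic-trained and untrained cells.

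Per the labels, the donors were male C57BL/6J mice of 8 weeks. Diabetic mice had received streptozotocin, a toxin of insulin-producing cells, at 42 to 45 mg/kg per day for 5 days, and were taken as diabetic above a blood glucose of 16.9 mmol/L. Mice assigned to the control group are named in the labels with no injection described. The labels give a period of 6 weeks of hyperglycaemia. Rest-phase cells of both groups had been grown for 7 days with the macrophage growth factor M-CSF in 5 mmol/L glucose. Second-phase cells of both groups were then stimulated for 16 hours with LPS at 100 ng/mL together with IFN-γ at 10 ng/mL. The collection time of first-phase cells, the number of mice and any pooling of marrow are not given in the labels, so the p-values below measure only how far libraries differ from each other, which can be technical. Nothing in the tables ties either mean column to the diabetic cells. The groups are therefore called A, for the earlier column, and B, and the letter A may stand for different conditions in different phases.

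C-type lectin receptors are surface proteins of myeloid cells that bind sugars, lipids and other ligands of microbes and of damaged cells. Activating members signal through an immunoreceptor tyrosine-based motif of their own or of the adaptors Fcer1g and Tyrobp to the kinase Syk and the adaptor Card9. Inhibitory members carry a motif that recruits the phosphatases Ptpn6 and Ptpn11. Siglecs bind sialic acid, the terminal sugar of many host glycans; most are inhibitory, while Siglec15 pairs with Tyrobp and is known for its part in osteoclast formation. By role the 37 genes fell into 9 activating receptors, 6 inhibitory receptors with their close relatives, 8 genes of the Clec2 family (ligands of NK cell receptors and relatives), 5 Siglecs and 9 other Clec genes. The last group holds proteins that are not pattern receptors of macrophages, such as Clec16a, an intracellular protein of endosome and mitochondrial turnover, and Clec11a, a secreted growth factor. Below, the name inhibitory receptors covers the group of 6 with its relatives, whether or not each carries the inhibitory motif.

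Most of these loci lie side by side. Chromosome 6 held 25 of the 37 genes and 116 of the 197 peaks, where the Clec4 genes, the Clec2 genes and the Clec7a to Clec12a cluster are found. A peak between neighbouring genes of such a cluster was given by the annotation to 1 of them, and reads from near-identical stretches of the Clec4a and Clec2 genes can be misplaced, so the gene given to a peak is uncertain there. The number of peaks per gene ran from 1, in 6 genes, to 25 at Clec16a, with a median of 4. Peaks at a gene start numbered 21, and 76 lay over 10 kb from one. By annotation 33.0% of the members' peaks were in promoters, against 26.1% of all peaks, and 22.8% against 36.7% were in introns.

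Promoter bases are shown for 5 genes whose start carried a called peak: Clec4b1, Clec12a, Clec2i and Clec16a, where the start peak differed both between the rest and the first phase and between the rest-phase groups, and Siglecg, whose start peak had the largest called fold between those phases of the 21 peaks at a start. Each run is the 250 bases before a listed gene start, read along the gene's strand, from RefSeq on GRCm38.p6, the assembly that mm10 names. Capitals mark letters that match a searched motif on either strand: GAAANNGAA (IRF) in Clec4b1, TGANTCA (AP-1) and TTGCNNAA (C/EBP) in Clec12a, and TTGCNNAA at 2 places in Clec16a.
Clec4b1 (chr6:123049712-123049961, plus strand): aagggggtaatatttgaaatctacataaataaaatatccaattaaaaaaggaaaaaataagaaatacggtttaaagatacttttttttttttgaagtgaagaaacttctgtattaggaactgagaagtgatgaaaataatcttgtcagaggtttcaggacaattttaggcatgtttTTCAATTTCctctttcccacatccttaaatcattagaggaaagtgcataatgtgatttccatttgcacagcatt
Clec12a (chr6:129349994-129350243, plus strand): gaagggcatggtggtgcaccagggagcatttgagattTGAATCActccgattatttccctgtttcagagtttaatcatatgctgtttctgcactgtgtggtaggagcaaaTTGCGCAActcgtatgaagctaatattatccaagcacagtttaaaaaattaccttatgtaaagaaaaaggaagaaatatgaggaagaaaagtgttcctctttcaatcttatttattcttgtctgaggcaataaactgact
Clec2i (chr6:128887337-128887586, plus strand): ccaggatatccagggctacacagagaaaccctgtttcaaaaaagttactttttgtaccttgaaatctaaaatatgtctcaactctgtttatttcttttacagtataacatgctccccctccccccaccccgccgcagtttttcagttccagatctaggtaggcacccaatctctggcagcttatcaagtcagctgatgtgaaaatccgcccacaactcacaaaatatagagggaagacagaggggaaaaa
Siglecg (chr7:43408030-43408279, plus strand): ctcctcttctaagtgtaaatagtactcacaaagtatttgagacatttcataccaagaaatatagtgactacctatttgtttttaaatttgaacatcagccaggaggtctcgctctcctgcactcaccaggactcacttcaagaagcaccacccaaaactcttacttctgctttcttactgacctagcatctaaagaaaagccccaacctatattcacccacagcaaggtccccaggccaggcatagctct
Clec16a (chr16:10545089-10545338, plus strand): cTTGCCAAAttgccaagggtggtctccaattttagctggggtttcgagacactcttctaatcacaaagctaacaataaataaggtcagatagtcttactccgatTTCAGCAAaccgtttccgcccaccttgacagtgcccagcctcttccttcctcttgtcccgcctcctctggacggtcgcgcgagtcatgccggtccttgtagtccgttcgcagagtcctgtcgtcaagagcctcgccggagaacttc

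Clec2i and Siglecg matched no searched motif in the bases shown. The search covered 300 bases per start, 250 before to 50 after, in the 29 member genes found in the promoter table by gene ID and in 27025 genes in all. The motif GAAANNGAA was in 7 of 29 members (24.1%), against 9.76% of all genes. TGANTCA was in 6 members (20.7%), against 8.97%, and TTGCNNAA in 5 members (17.2%), among them Clec2i outside the bases shown, against 12.2%. GGANTTTCC (NF-kB) was in 1 member (3.45%), against 1.45%, and TTCNNNGAA (STAT) in 1 member (3.45%), against 9.55%. GAGGAAGT (PU.1) and the E-box CACGTG were in 0 members, against 3.69% and 8.09% of all genes. No motif overlapped another in the bases printed, and a match is a description of the letters, not of binding.

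Reads per library were recovered from the group means, and libraries are numbered 1 and 2 within a group by the worth of a read, not by the labels' replicate numbers. Reads in peaks ran from 3832347 to 18617444 per library, of which 0.094% to 0.162% lay in member peaks. Macrophage markers had peaks at all 10 listed genes, and their summed log2 level was 12.52 to 13.24 in the first phase, 13.13 to 13.52 in the rest phase and 13.28 to 13.50 in the second. The 8 neutrophil markers summed to 11.61 to 13.06 in the first phase, 10.06 to 10.35 in the rest phase and 10.31 to 10.72 in the second, and the 4 B cell markers to 10.10 to 11.64, 8.75 to 9.81 and 8.83 to 10.26 in the same order. No peak was assigned to Xcr1, Epx or Cd209b. In the first phase, libraries A1 and A2 lay almost within counting noise of each other, with a variance of 1.13 times that noise, and they count as 1 sample where phases are compared.

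The second-phase libraries did not pair as their groups do. Library A1 of the second phase correlated at r = 0.977 with rest-phase library A1 over all 139557 peaks with recovered reads, and at 0.823 with its own partner A2. Library A2 in turn correlated at 0.935 with B2 of the other group, while B1 and B2 correlated at 0.737. Over the 196 member peaks the same pairs gave 0.977, 0.742, 0.934 and 0.674. Library B1 correlated at 0.895 with rest-phase library A1. Rest-phase A1 and its own partner A2 correlated at 0.967, below the 0.977 of rest-phase A1 with second-phase A1. Which second-phase libraries hold stimulated cells is known from the labels alone and was not tested, nor was an exchange of libraries. The comparison of the second with the rest phase is given with and without these libraries. Between the second-phase groups, only counts of peaks called by limma are given with a library left out.

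**Figure D1:**
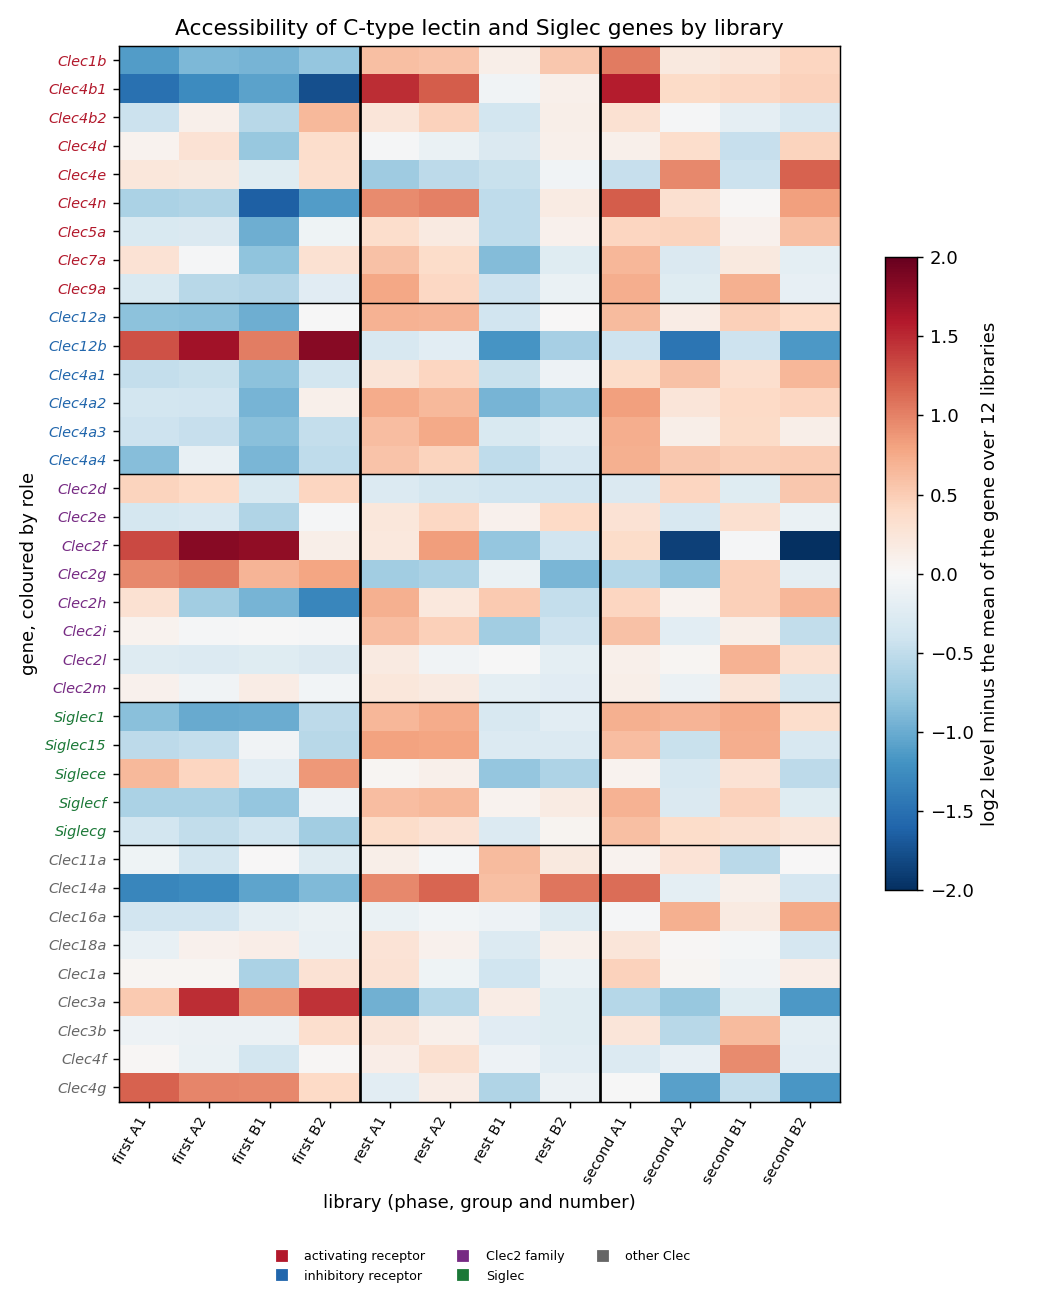
Log2 level of each of the 37 genes in each of the 12 libraries, minus the mean of the gene over all libraries (colour, clipped at 2 on either side); rows are genes coloured by role and columns are libraries by phase, group and number. The first phase stands apart from the other phases in many rows, group A stands above group B in the rest phase for Clec4a2 and the Siglecs, and Clec4e is highest in libraries A2 and B2 of the second phase.

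In the rest phase, 5 of 6 inhibitory receptors and relatives and 5 of 5 Siglecs were more open in group A than in group B. All these calls were lost when library B1 was left out. At gene level, with reads summed over the peaks of a gene, quantile-scaled and tested with limma, 17 of the 37 genes were higher in A and 0 were higher in B at an adjusted p under 0.05. Among all 19377 genes tested, 17.1% were higher in A and 16.4% in B. The median log2 fold of A over B was 0.44 over the 37 genes, against 0.00 over all genes. All 4 libraries were ordered with A above B in 25 of the 37 genes and with A below B in 3, against 34.1% and 33.9% of all genes. ATAC-seq of a mixed culture cannot tell fewer cells of a type from less open chromatin per cell.

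Of the 6 inhibitory receptors and relatives, 5 were higher in group A. Clec4a2, the dendritic cell immunoreceptor DCIR, lay at log2 levels of 9.61 and 9.52 in group A, against 7.94 and 8.07 in group B. The A libraries lay above the B libraries, and the log2 fold was 1.47 (SE 0.10, adjusted p = 1.96e-05). Its relative Clec4a3 had 9.31 and 9.44 in A, against 8.38 and 8.48 in B, with a log2 fold of 0.89 (SE 0.10, adjusted p = 0.000158). Clec12a, an inhibitory receptor for uric acid crystals, had 10.23 and 10.21 in A, against 9.15 and 9.54 in B, and a fold of 0.86 (SE 0.11, adjusted p = 0.000325). Clec4a4 and Clec4a1, further relatives of Clec4a2, followed with log2 folds of 0.88 (SE 0.15) and 0.57 (SE 0.13). Clec12b did not pass, with a log2 fold of 0.68 (SE 0.30, adjusted p = 0.0996).

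All 5 Siglecs were higher in group A. Siglec1 (sialoadhesin, CD169), a sialic acid receptor of tissue macrophages, lay at log2 levels of 9.56 and 9.64 in A, against 8.58 and 8.68 in B. Siglec15 had 9.52 and 9.50 in A, against 8.45 and 8.45 in B. In both genes the gap between groups was wider than the gaps within them, with log2 folds of 0.93 (SE 0.09, adjusted p = 9.34e-05) for Siglec1 and 1.01 (SE 0.09, adjusted p = 6.57e-05) for Siglec15. Siglece, an inhibitory Siglec of neutrophils and macrophages, had a log2 fold of 0.72 (SE 0.12), Siglecf, best known from eosinophils, 0.51 (SE 0.09), and Siglecg, best known from B cells, 0.42 (SE 0.11). The 2 groups did not overlap in any of these 3 genes.

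Activating receptors split. Clec7a (Dectin-1), the receptor for fungal beta-glucan, lay at log2 levels of 8.51 and 8.28 in group A, against 7.05 and 7.67 in group B, with a fold of 0.98 (SE 0.19, adjusted p = 0.00242). Clec4n (Dectin-2), which binds fungal mannans, had 7.10 and 7.17 in A, against 5.65 and 6.32 in B, with a fold of 1.15 (SE 0.24, adjusted p = 0.00426). Clec4b1, a Clec4 relative that pairs with Fcer1g, had 6.81 and 6.55 in A, against 5.27 and 5.43 in B, with a fold of 1.34 (SE 0.23, adjusted p = 0.00152). Clec9a, which binds the actin of dead cells, was the fourth activating gene past the threshold, at 0.80 (SE 0.15). In contrast, Clec4e (Mincle), a receptor for mycobacterial glycolipid, had 7.63 and 7.81 in A, against 7.89 and 8.26 in B, a fold of -0.33 (SE 0.15, adjusted p = 0.113). Its partner Clec4d had no call, at 10.18 and 10.07 in A and 9.91 and 10.30 in B, a fold of 0.02 (SE 0.11, adjusted p = 0.900). Clec5a and Clec1b, a Syk-coupled receptor of platelets, had folds of 0.44 (SE 0.16, adjusted p = 0.0588) and 0.24 (SE 0.15, adjusted p = 0.251).

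In the Clec2 family 3 of 8 genes were higher in group A, and among the other Clec genes 0 of 9 were called. Clec2i had 8.74 and 8.61 in A, against 7.43 and 7.72 in B, a log2 fold of 1.03 (SE 0.13, adjusted p = 0.000327). Clec2f (1.14, SE 0.35) and Clec2m (0.39, SE 0.12) were also called, and both lost the call when libraries were scaled to total reads (adjusted p = 0.147 and 0.0521). Clec2d, the ligand by which healthy cells restrain NK cells, had no call, at 9.14 and 9.07 in A and 9.02 and 9.03 in B. Clec16a had none either, at 10.11 and 10.18 in A and 10.14 and 9.98 in B. Scaling to total reads gave 15 genes higher in A and 2 higher in B, against 15.2% and 19.9% of all genes. Those higher in B were Clec11a (-0.41, SE 0.12) and Clec3a (-1.10, SE 0.41).

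**Figure D2:**
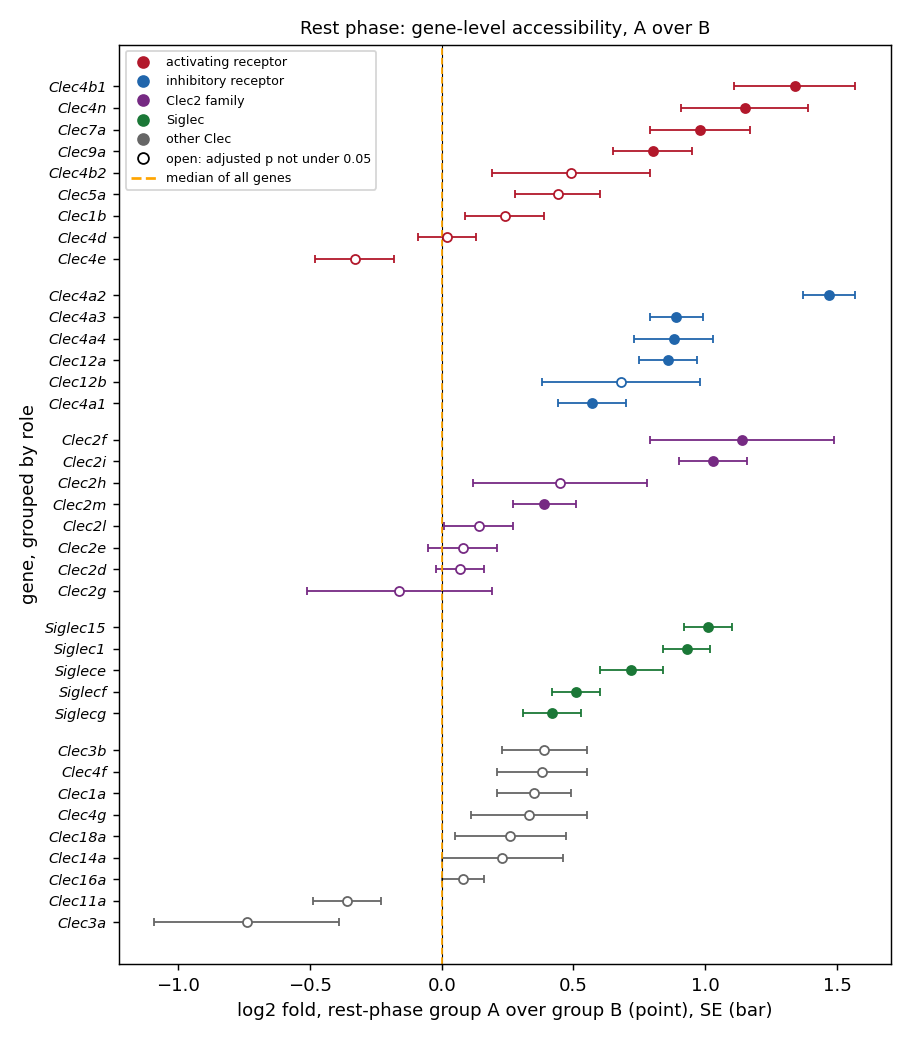
Log2 fold of rest-phase group A over group B for each gene (point) with its standard error (bar), grouped by role; filled points have an adjusted p under 0.05 by limma and the dashed line is the median of all genes. Inhibitory receptors and Siglecs lie to the right of 0 throughout, while Clec4e, Clec2g, Clec11a and Clec3a lie to the left with no call.

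The 17 calls rested on few libraries. Leaving out 1 library leaves a lone library in its group, which is then assumed to vary like the other group. Without A1 4 member genes were called, without A2 6, without B1 0 and without B2 12. Clec4a2, Clec4a3, Siglec1 and Siglec15 were called in each of the fits that left out A1, A2 or B2. Calls over all genes fell as well in each fit that left out a library, and without B1 limma called no gene at all. Under the authors' scaling the median log2 fold of all genes moved to 1.33, and 32 members were called higher in A, with a member median of 1.75, as were 53.3% of all genes. The folds of Clec4e, Clec2g, Clec11a and Clec3a were below 0 with quantile and total scaling of gene sums and above 0 with the authors'. Genes and peaks were quantile-scaled apart, so a gene with 1 peak has a fold at each level from the same reads. These were 1.34 and 0.82 for Clec4b1, 1.15 and 0.66 for Clec4n, and 1.14 and 0.81 for Clec2f, whose call was lost at the peak (adjusted p = 0.179). Clec11a had -0.36 for the gene and 0.07 for the peak (adjusted p = 0.706), and Clec14a 0.23 and -0.27, so their direction turned. Beside these results, the macrophage markers summed to 13.52 and 13.47 in A, against 13.13 and 13.22 in B, the B cell markers to 8.75 and 8.94 in A, against 9.81 and 9.30 in B, and the eosinophil markers to 10.48 and 10.56 in A, against 9.57 and 9.77 in B. Dendritic cell markers summed to 11.33 and 11.30 in A, against 10.82 and 10.88 in B, T and NK cell markers to 11.31 and 11.42, against 11.86 and 11.79, and megakaryocyte markers to 9.33 and 9.26, against 9.40 and 9.22. Neutrophil markers summed to 10.20 and 10.06 in A, against 10.35 and 10.06 in B. Such sums lean on the genes with the most reads. Among T and NK cell markers only Klrb1c was called (-0.70, SE 0.08), while Cd3e (-0.42), Ncr1 (0.24) and Gata3 (0.05) had no call. Of the eosinophil markers Ccr3 was called (0.92, SE 0.09) and Prg2 was not (0.30, SE 0.18). Of the 4 megakaryocyte markers only Pf4 was called (1.49, SE 0.45), at 6.24 and 6.37 in A, against 4.01 and 5.68 in B. Batf3 (0.62, SE 0.08) and Flt3 (0.32, SE 0.10) were the dendritic cell markers called, and Zbtb46 (0.06, SE 0.15) was not. B cell markers gave 3 calls lower in A of 4. Macrophage markers gave 4 calls higher in A and 1 lower, Cd68 (-0.29, SE 0.09). Of the 8 neutrophil markers 3 were called lower in A: Ngp (-1.14, SE 0.39), Camp (-1.14, SE 0.22) and S100a8 (-0.69, SE 0.16). Cxcr2 (0.41, SE 0.15) was the 1 neutrophil marker called higher. The part of these markers in the members' folds was not tested.

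Single peaks showed where these differences lay. For the rest phase the authors' deposited table had 105 of the 197 member peaks higher in A at an adjusted p under 0.05 and 0 higher in B, where all peaks gave 39.7% and 0.0929%. The mean was higher in A for 96.4% of member peaks and 93.4% of all peaks, and the median deposited log2 fold was 1.29 for members and 1.04 for all peaks. By role, 24 of 31 peaks of inhibitory receptors, 28 of 41 of Siglecs, 19 of 35 of activating receptors, 16 of 39 of the Clec2 family and 18 of 51 of other Clec genes were called. With quantile scaling, where the median fold of all peaks was -0.02, limma called 30 member peaks higher in A and 6 higher in B of 196, against 6.48% and 5.56% of all peaks.

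An intronic peak of Clec4a2 (mm10 chr6:123116503-123116902) led the authors' deposited table among members, with a log2 fold of 3.06 (adjusted p = 1.96e-05). Its recovered reads were 480 and 269 in group A, against 26 and 27 in group B. With quantile scaling the log2 fold of this peak was 2.19 (SE 0.29, adjusted p = 0.00323). An intergenic peak 9672 bp before Siglec1 (chr2:131096437-131096836) had 92 and 125 reads in A, against 11 and 12 in B, and a quantile-scaled fold of 2.05 (SE 0.35, adjusted p = 0.00807). The Clec4a3 peak 12507 bp before its start (chr6:122939609-122940008) had 181 and 177 reads in A, against 13 and 31 in B, and a fold of 1.85 (SE 0.38, adjusted p = 0.0155). These reads are not scaled: reads in all peaks were 18617444 and 16002834 in A, against 5459236 and 8775958 in B.

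The start peak of Clec2i, whose promoter bases are given above, had 133 and 156 reads in A, against 8 and 27 in B, a quantile-scaled fold of 2.14 (SE 0.55, adjusted p = 0.0363). The start peaks of Clec12a (0.85), Clec7a (0.85) and Clec4b1 (0.82) were higher in A as well, with adjusted p of 0.00407, 0.0419 and 0.0373. Other large called folds were at peaks of Clec2m (1.80, SE 0.50), Siglec15 (1.79, SE 0.34), Clec2l (1.56, SE 0.44) and Clec12a (1.42, SE 0.32). By the deposited fold, peaks of Clec16a (2.40) and Clec4f (2.15) also ranked among the leading 8 in the authors' deposited table.

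The 6 peaks higher in group B belonged to Clec2d, Clec2e, Clec4d and Clec16a, genes with no call at gene level. An intergenic peak of Clec2d (chr6:129199991-129200390) lay at log2 levels of 3.64 and 4.46 in A, against 6.12 and 6.13 in B, a fold of -2.17 (SE 0.35, adjusted p = 0.00645). A peak of Clec2e (chr6:129088546-129088945) had 6.18 and 6.51 in A, against 7.77 and 7.84 in B, a fold of -1.38 (SE 0.17, adjusted p = 0.00275). A peak of Clec4d 1022 bp from its start (chr6:123263139-123263538) had 6.34 and 6.36 in A, against 7.26 and 7.53 in B, a fold of -1.01 (SE 0.17, adjusted p = 0.00827). An intronic peak of Clec16a had a fold of -1.51 (SE 0.40, adjusted p = 0.0404), and its start peak one of -0.60 (adjusted p = 0.0325). The Clec2d peak, in the authors' deposited table, had a fold of -0.49, the Clec2e peak 0.05 and the Clec4d peak 0.36, with no call, and the Clec16a start peak 0.54, so the direction at Clec2e, Clec4d and the Clec16a start turned with the scaling.

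Between the rest phase and the first phase, C-type lectin genes moved both ways. At gene level 12 of the 37 genes were higher in the rest phase (n = 4) than in the first phase (n = 3) and 7 were lower, by limma on quantile-scaled reads with groups A and B pooled. Among all genes 25.5% were higher and 26.6% lower, and the median log2 fold was 0.25 over members and -0.03 over all genes. All rest-phase libraries lay above all first-phase libraries in 10 of the 37 genes and below them in 4, against 25.3% and 26.2% of all genes. Inhibitory receptors gave 3 higher and 1 lower of 6, activating receptors 3 and 1 of 9, Siglecs 3 and 0 of 5, the Clec2 family 2 and 3 of 8 and other Clec genes 1 and 2 of 9. The median fold was 0.63 for inhibitory receptors, 0.64 for Siglecs and -0.02 for the Clec2 family.

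Clec4b1 had the largest gene-level rise. Its log2 levels were 6.81, 6.55, 5.27 and 5.43 in the rest phase (A1, A2, B1, B2), against 3.84, 4.07, 4.27 and 3.58 in the first phase. The phases did not overlap, and the log2 fold was 2.09 (SE 0.39, adjusted p = 0.00108). Clec4b1 has a single peak, over the start printed above, with 5, 6, 16 and 9 reads in the first-phase libraries. Clec4n had 7.10, 7.17, 5.65 and 6.32 in the rest phase, against 5.53, 5.56, 4.53 and 5.04 in the first, a fold of 1.52 (SE 0.37, adjusted p = 0.00562). Its 1 peak lies at its 3′ end, next to Clec4d. Clec1b had 7.98, 7.96, 7.50 and 7.92 in the rest phase, against 6.26, 6.48, 6.45 and 6.61 in the first, a fold of 1.37 (SE 0.18, adjusted p = 0.000123). Clec14a, an endothelial protein, rose by 2.03 (SE 0.23) at a single peak 269011 bp from its start, so its link to that gene is uncertain.

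The log2 level of Siglec1 was 9.56, 9.64, 8.58 and 8.68 in the rest phase, against 8.06, 7.88, 7.90 and 8.37 in the first, a fold of 1.04 (SE 0.27, adjusted p = 0.00716). Siglecf had 9.75, 9.77, 9.19 and 9.29 in the rest phase, against 8.50, 8.49, 8.36 and 9.03 in the first, a fold of 0.87 (SE 0.20, adjusted p = 0.00422). Neither gene overlapped between phases. Siglecg rose by 0.63 (SE 0.18, adjusted p = 0.0110). Siglec15 (0.64, SE 0.28, adjusted p = 0.0792) and Siglece (-0.72, SE 0.28, adjusted p = 0.0515) did not pass. Among inhibitory receptors and relatives Clec12a (0.85, SE 0.29), Clec4a3 (0.81, SE 0.26) and Clec4a1 (0.59, SE 0.22) rose, while Clec4a2 had a fold of 0.32 (SE 0.41, adjusted p = 0.536). In Clec4a2 the rest-phase B libraries, at 7.94 and 8.07, lay within the first-phase range of 7.93 to 8.97, and the A libraries, at 9.61 and 9.52, lay above it.

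Genes that fell were led by Clec12b, an inhibitory receptor, at 5.59, 5.69, 4.72 and 5.24 in the rest phase, against 7.18, 7.58, 6.92 and 7.73 in the first. Its log2 fold was -2.03 (SE 0.28, adjusted p = 0.000179), the only called fall among the inhibitory receptors. This fall lay at 1 of its 2 peaks, an intergenic peak 10010 bp from its start, with a fold of -2.58 (SE 0.34). The peak 2286 bp before the start had a fold of 0.14 (SE 0.39) and no call by limma (adjusted p = 0.811). Clec3a (-1.53, SE 0.29), a cartilage protein, Clec4g (-1.01, SE 0.22), a lectin of liver sinusoids, and Clec2g (-1.40, SE 0.24) and Clec2f (-1.17, SE 0.45) also fell. Clec4e had 7.63, 7.81, 7.89 and 8.26 in the rest phase, against 8.56, 8.53, 8.10 and 8.68 in the first, a fold of -0.55 (SE 0.19, adjusted p = 0.0325). Clec2d had 9.14, 9.07, 9.02 and 9.03 in the rest phase, against 9.86, 9.82, 9.12 and 9.85 in the first, a fold of -0.53 (SE 0.18, adjusted p = 0.0260). First-phase library B1 was the lowest of its phase in both genes. Clec7a (0.08, SE 0.35), Clec4d (-0.02, SE 0.23), Clec5a (0.49, SE 0.25), Clec9a (0.58, SE 0.26) and Clec16a (0.10, SE 0.12) had no call, with adjusted p of 0.869, 0.960, 0.115, 0.0780 and 0.516.

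**Figure D3:**
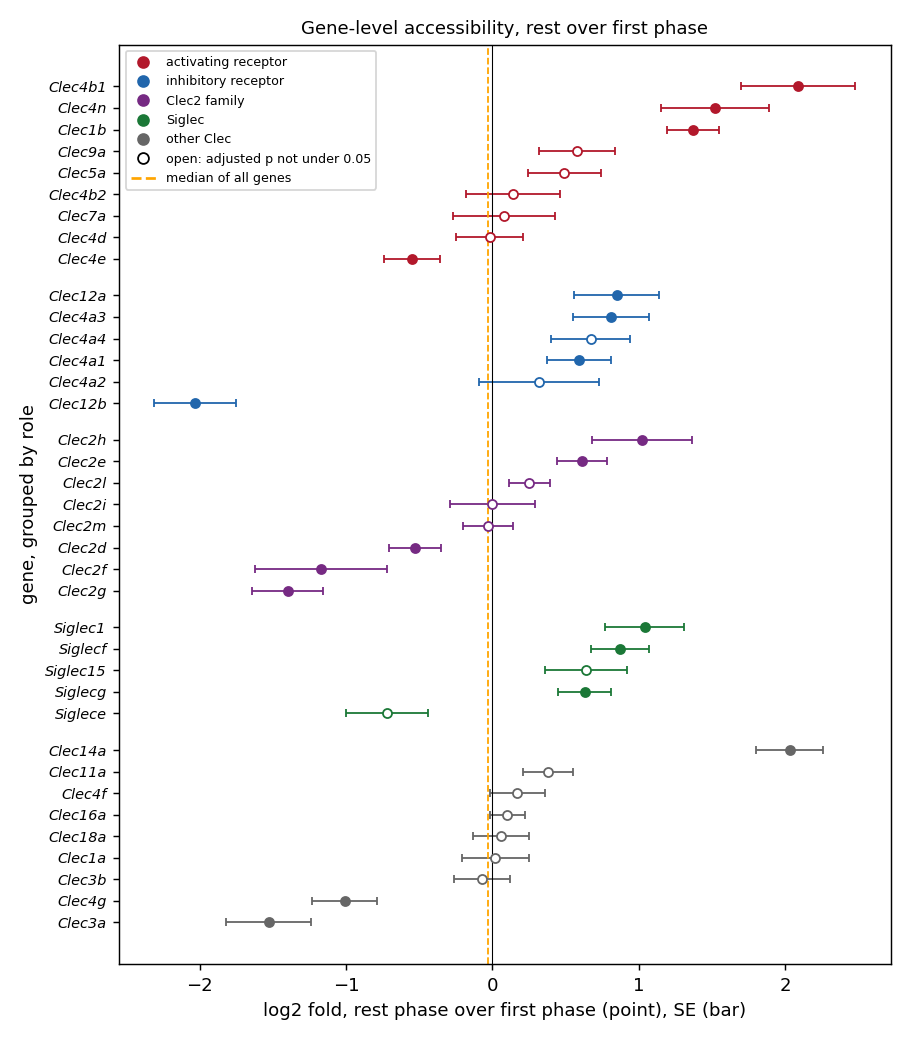
Log2 fold of the rest phase over the first phase for each gene (point) with its standard error (bar), grouped by role; filled points have an adjusted p under 0.05 by limma and the dashed line is the median of all genes. Clec4b1, Clec14a and Clec4n lie farthest to the right and Clec12b, Clec3a and Clec2g farthest to the left.

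Of these 19 calls, 11 held in each of the 7 fits that left out a sample: Clec4b1, Clec14a, Clec4n, Clec1b, Siglec1, Siglecf and Siglecg higher, and Clec12b, Clec3a, Clec2g and Clec4g lower. Clec4e and Clec2f kept the call in 2 of the 7 fits, and Clec12a, Clec4a1 and Clec2h in 3. Scaling to total reads gave 17 genes higher and 6 lower, against 30.0% and 23.2% of all genes. The authors' scaling of each table gave 5 and 0, against 12.8% and 1.07%, with the median of all genes at 0.56. Counts were also taken by group: libraries of group A alone against the first phase gave 18 genes higher and 5 lower, against 27.1% and 28.5% of all genes, and those of group B alone gave 7 and 7, against 21.9% and 22.4%. Clec12a rose by 1.29 (SE 0.27, adjusted p = 0.00397) in group A alone and had a fold of 0.44 (SE 0.28, adjusted p = 0.226) in group B alone, and Siglec15 had 1.19 (SE 0.17, adjusted p = 0.000677) and 0.12 (SE 0.19, adjusted p = 0.646). Of the 11 genes above, Clec4n and Siglecg lost the call by limma in group B alone. Clec4n had 2.13 (SE 0.30) in group A alone and 0.88 (SE 0.33, adjusted p = 0.0549) in group B alone. Siglecg had 0.86 (SE 0.15) and 0.44 (SE 0.18, adjusted p = 0.0754). The others of the 11 kept the call in each group alone, with Siglec1 at 1.56 (SE 0.18) and 0.60 (SE 0.19). Of the neutrophil markers 7 of 8 were called lower in the rest phase, as were 4 of 4 B cell markers, and their part in the members' folds was not tested.

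Between these phases, peaks of 1 gene moved in opposite directions at Siglecg, Siglecf, Siglec15, Clec12a and Clec16a. Of 196 member peaks 35 were higher and 45 lower in the rest phase, against 19.8% and 18.9% of all peaks. The largest fall was an intergenic peak 3054 bp before Clec4e (chr6:123292924-123293323). Its log2 level was 2.46, 3.00, 3.36 and 2.39 in the rest phase, against 7.35, 7.24, 7.46 and 6.51 in the first, a fold of -4.25 (SE 0.37, adjusted p = 1.94e-06). At 5 to 10 reads per rest-phase library this peak was close to empty, whereas the start peak of Clec4e had a fold of 0.06 (SE 0.25, adjusted p = 0.879).

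At Siglecg the start peak printed above fell and an upstream peak rose. The start peak (chr7:43408043-43408442) had 3.57, 3.94, 3.70 and 3.79 in the rest phase, against 7.27, 7.11, 7.15 and 6.37 in the first, a log2 fold of -3.12 (SE 0.31, adjusted p = 5.25e-06). The peak 8327 bp before the start (chr7:43399478-43399877) had 8.28, 8.12, 7.72 and 7.84 in the rest phase, against 5.21, 5.48, 5.35 and 6.16 in the first, a fold of 2.42 (SE 0.26, adjusted p = 8.32e-06). The gene-level rise of Siglecg thus joins peaks that moved apart. At the Siglecf start the fold was -1.48 (SE 0.31, adjusted p = 0.00154), while the peak 7772 bp before it rose by 1.61 (SE 0.31, adjusted p = 0.000927). A peak of Siglece (chr7:43656146-43656545) fell to 2.77, 2.89, 3.53 and 2.97 in the rest phase, against 7.00, 6.25, 6.06 and 7.14 in the first, a fold of -3.53 (SE 0.36, adjusted p = 5.67e-06).

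Clec12a held both directions: a peak 1146 bp from its start rose by 2.14 (SE 0.39, adjusted p = 0.000645), and another start peak (chr6:129356462-129356861) had a fold of -2.04 (SE 0.37, adjusted p = 0.000632). Siglec15 had a rise of 3.01 (SE 0.34, adjusted p = 1.19e-05) at a peak 14878 bp before its start. It had a fall of 2.81 on the log2 scale (SE 0.70) at a peak in an intron. At that intronic peak first-phase library B2, at 3.58, lay within the rest-phase range of 2.70 to 3.87, so the phases overlapped. Introns of Clec16a gave folds of 2.57 (SE 0.30, adjusted p = 1.67e-05) and -3.17 (SE 0.48, adjusted p = 0.000127). A Clec4d peak 80 bp before a start fell by 1.82 on the log2 scale (SE 0.25, adjusted p = 6.16e-05). Other large rises were at Clec4a2 (2.22, SE 0.56), Clec4a3 (2.00, SE 0.28) and Clec4b1 (2.15, SE 0.34), and other large falls at Clec2d (-2.69, SE 0.58), Clec2g (-2.68, SE 0.36) and Clec12b (-2.58, SE 0.34). With total-read scaling 49 member peaks were higher and 25 lower, against 26.4% and 13.4% of all peaks, and with the authors' scaling 38 and 9, against 23.5% and 4.99%, and the median over all peaks moved to 0.30 and 0.74.

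**Figure D4:**
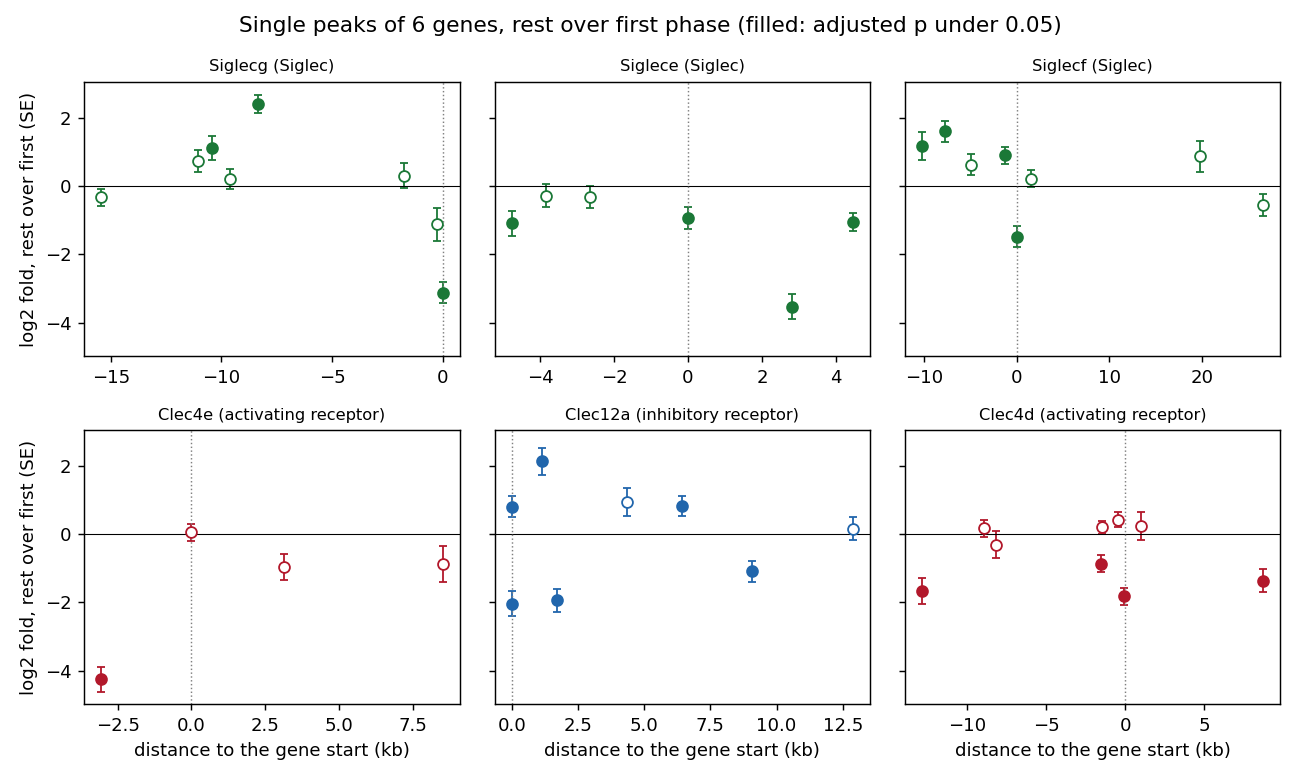
Log2 fold of the rest phase over the first phase at each peak of 6 genes (point, bar: standard error) against its distance to the gene start in kb; filled points have an adjusted p under 0.05. At Siglecg and Siglecf the start peak fell by 3.12 and 1.48 while upstream peaks rose, at Clec4e the only called peak lies 3054 bp before the start, and Clec12a holds called peaks on both sides of 0.

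In the first phase no member peak passed the test between the groups. The authors' deposited table called 0 of 197 member peaks and 0% of all peaks at an adjusted p under 0.05, with 4 members and 812 peaks in all at an unadjusted p under 0.05. limma on recovered reads also called 0, with 12 members at an unadjusted p under 0.05 with quantile scaling, 9 with total reads and 11 with the authors' scaling. The shares of all peaks were 3.74%, 4.49% and 3.84% in the same order. Clec7a lay at log2 levels of 8.20 and 7.90 in group A, against 7.12 and 8.23 in group B, and Clec4e 8.56 and 8.53 in A, against 8.10 and 8.68 in B. Siglec1 had 8.06 and 7.88 in A, against 7.90 and 8.37 in B. The A libraries lay within the range of the B libraries in Clec7a and Clec4e, and overlapped it in Siglec1. With 2 libraries per group the simulated 4-fold changes of single peaks were called in 39% of cases in this phase, and 2-fold changes in 0%. These changes were planted only in peaks above a set mean of reads, with a fixed spread between libraries. Median reads per member peak were 12 to 22 in the libraries of this phase, so the rates can be too high for members.

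In the phase labelled as stimulated with IFN-γ and LPS, the authors' deposited table called 60 of 197 member peaks higher in A and 0 higher in B, where all peaks gave 26.7% and 0.00429%. The members' median deposited log2 fold was 0.89, against 0.86 over all peaks, and 93.9% of members and 93.2% of all peaks had the higher mean in A. Peaks of Siglec1 (1.88), Siglecf (1.71), Siglecg (1.69), Clec4a3 (1.68) and Siglec15 (1.66) led by fold in the authors' deposited table, with adjusted p from 0.0242 to 0.0243. limma on recovered reads called 0 member peaks under each of the quantile, total and authors' scalings. In the same order 2, 2 and 6 members had an unadjusted p under 0.05, against 0.771%, 0.972% and 3.82% of all peaks. Clec4a2 lay at log2 levels of 9.69 and 9.11 in A, against 9.26 and 9.30 in B, and Siglec1 9.60 and 9.58 in A, against 9.63 and 9.24 in B. The groups overlapped in both genes.

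Pooled over groups, no member passed the test between the second phase (n = 4) and the rest phase (n = 4). limma called 0 of 196 member peaks and 0 of 37 genes, and 0% of all peaks and 0% of all genes, with 26 member peaks and 4 member genes at an unadjusted p under 0.05, as were 11.4% of all peaks and 8.49% of all genes. The libraries themselves differed. Clec4e lay at log2 levels of 7.87 and 9.29 in second-phase A and 7.91 and 9.51 in second-phase B, against 7.63, 7.81, 7.89 and 8.26 in the rest phase. Library 2 of both groups was high, and library 1 of both lay within the rest-phase range. Clec4e was the sole member gene more than 1 log2 unit higher in library 2 than in library 1 in both groups, as were 442 of 19377 genes. Clec2f and Siglec15 were more than 1 unit lower in library 2 in both groups, as were 255 of 19377 genes. Clec2f had only 6 reads in A2 and 1 in B2.

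Siglec15 had 9.34 and 8.27 in second-phase group A and 9.44 and 8.39 in group B, against 9.52, 9.50, 8.45 and 8.45 in the rest phase. Clec16a had 10.21 and 10.95 in second-phase A and 10.42 and 11.00 in B, against 10.11, 10.18, 10.14 and 9.98 in the rest phase. Clec2d had 9.13 and 9.85 in second-phase A and 9.18 and 9.95 in B, against 9.14, 9.07, 9.02 and 9.03. Clec4d was also higher in library 2 of both groups, at 10.31 and 10.55 in second-phase A and 9.74 and 10.65 in second-phase B. Without libraries A1 and B1, limma called 37 member peaks (27 higher, 10 lower, against 9.14% and 6.11% of all peaks) and 7 member genes (4 higher, 3 lower, against 6.36% and 4.24% of all genes). The 4 higher genes were Clec4e at a log2 fold of 1.45 (SE 0.18, adjusted p = 0.00272), Clec16a at 0.89 (SE 0.11), Clec2d at 0.83 (SE 0.11) and Clec4d at 0.49 (SE 0.13). The 3 lower were Clec2f (-2.61, SE 0.56), Clec14a (-1.23, SE 0.23) and Clec4g (-0.94, SE 0.23). Clec2f and Clec14a have a single peak each. Reads in second-phase A2 and B2 were 6 and 1 at Clec2f, which was close to empty, and 33 and 20 at Clec14a. Without A2 and B2 instead, limma called 0 member peaks and 0 member genes. At an unadjusted p under 0.05 were 8 member peaks and 0 member genes, against 6.1% of all peaks and 6.17% of all genes. The fold of Clec4e was then -0.00 (SE 0.21). These libraries were chosen after their values were seen, and what sets them apart was not tested.

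**Figure D5:**
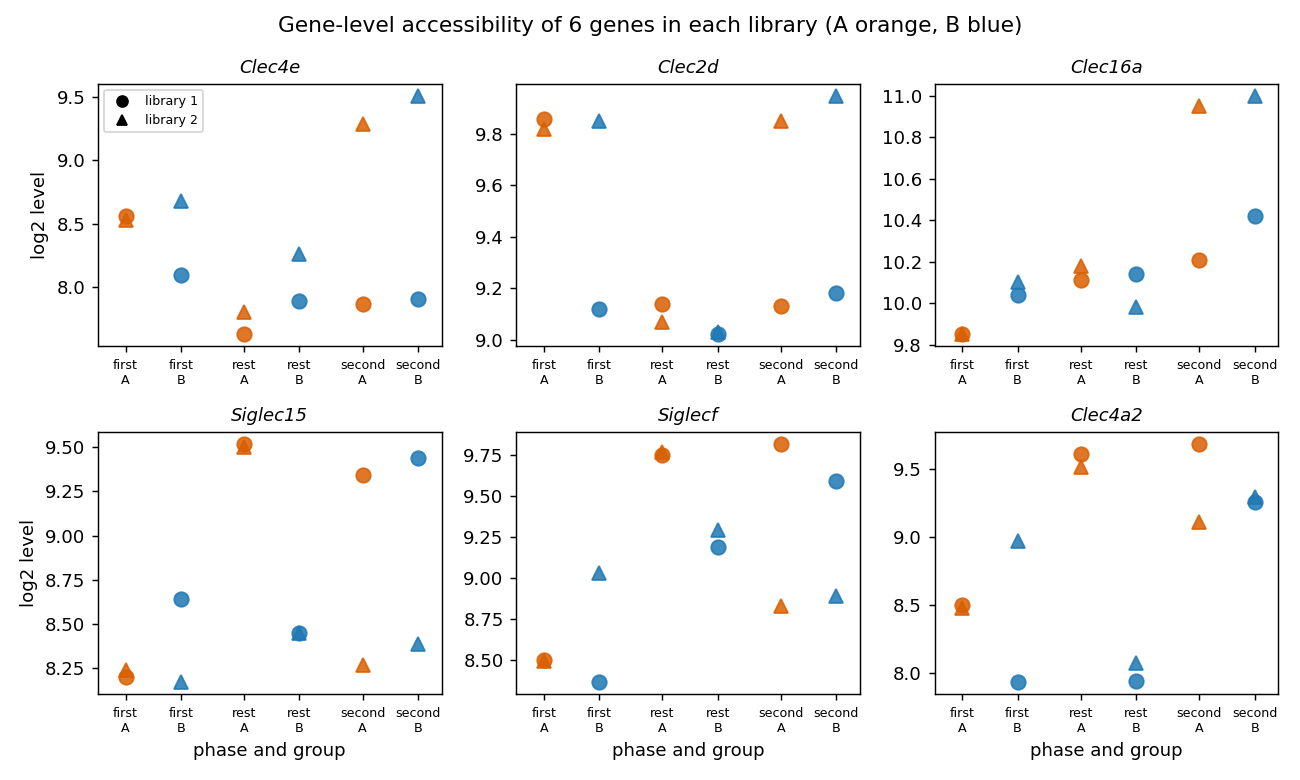
Gene-level log2 level of 6 genes (y axis) in each library, by phase and group (x axis; A orange, B blue; circles library 1, triangles library 2). In the second phase Clec4e, Clec2d and Clec16a are high in library 2 of both groups, and Siglec15 and Siglecf are low there, while Clec4a2 separates the groups in the rest phase.

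Signalling genes downstream of these receptors moved both ways, as did all genes, of which 17.1% were higher and 16.4% lower in rest-phase group A, and 25.5% higher and 26.6% lower in the rest than in the first phase. Of 17 adaptor and signalling genes, 6 were higher and 4 lower in rest-phase group A than in group B. Ptpn6 (0.67, SE 0.08), the phosphatase recruited by inhibitory motifs, and Card9 (0.52, SE 0.13) were higher in A with the kinase Lyn (0.52, SE 0.08), and Syk (-0.28, SE 0.08), Tyrobp (-0.39, SE 0.09), Bcl10 (-0.54, SE 0.08) and Malt1 (-0.61, SE 0.08) were lower. Between the rest and the first phase 3 of the 17 were higher and 4 lower, among them Src (1.16, SE 0.12) and Tyrobp (-1.04, SE 0.20). Of 20 related receptors outside the rule, 5 were higher and 1 lower in rest-phase group A, led by the lectin-like scavenger receptor Olr1 (1.16, SE 0.15) and the mannose receptor Mrc1 (0.83, SE 0.09). Between the rest and the first phase 9 of these 20 were higher and 6 lower, with Lgals3 at 2.06 (SE 0.19) and Mrc1 at 1.60 (SE 0.23) among those higher.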

How the data were processed

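ATAC-seq libraries of 12 samples in 6 groups were used. Per the submitters' processing notes the build was mm10, and HOMER 5.1, DESeq2, DiffBind 3.14.0 and Bowtie2 2.5.4 are among the tools listed, without their roles; MACS2, Picard 3.2.0 and deepTools 3.2.1 are listed too. The authors deposited 1 table per phase with the same 139999 peaks, mostly 400 bp wide. Each holds log2 group means of normalized reads, a log2 fold shrunken towards 0, a p-value and an adjusted p-value by the authors, and the annotation of each peak. The deposited fold was turned to A over B.

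Each deposited mean was solved for the whole reads of its 2 libraries (largest relative miss 3.46e-09, n = 139557 peaks; 442 peaks with a listed 0 left out, 1 of them a member). On simulated means 100% of reads were recovered. Within a phase, calls are the authors' adjusted p under 0.05, with limma as an alternative. Between phases and at gene level, reads were quantile-scaled and log2(value + 1) was tested with limma 3.58.1 (empirical Bayes with trend, Benjamini-Hochberg over all peaks or all genes). Log2 levels of single libraries were scaled over all 12. Depth was 3832347 to 18617444 reads in peaks per library, and counting error is part of the spread limma estimates. On simulated reads (200 changed among all features) changes of 2-fold and 4-fold in peaks were recovered by limma in 38% and 98% of cases between rest and first phase, and in 6% and 77% between rest-phase groups. For genes these were 91% and 99%, and 43% and 98%. Changes were planted only in features above a set mean of reads, with a fixed spread between libraries. The rates can therefore be too high for members with few reads or a wider spread.

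The members, gene lists, motifs and named genes were chosen with earlier results of these data known. Named were 18 members at gene level, plus up to 8 peaks and 8 genes per direction and comparison with the largest called folds; further values, such as those of start peaks, were chosen after they were seen. With no genome used here, promoter bases stand in for peak bases. Alternatives were other scalings, a pseudocount of 5, a mean of at least 10 scaled reads, groups as a covariate and leaving out libraries. The gene-level test within the rest phase was added after the data were seen.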

Additional observations from a re-analysis of the deposited data

Results flagged for a closer look

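In 4 of 74 sets of 4 libraries (a gene in a phase), 1 library stood far from the other 3, and chance marks about 1 set in 20. Clec1b had its lowest rest-phase log2 level, 7.50, in library B1, where the others lay between 7.92 and 7.98. Clec4b1 had its highest second-phase level, 6.91, in library A1, against 5.71 to 5.80 in the others. Clec4f, a lectin of Kupffer cells, had its highest second-phase level, 8.00, in library B1, against 6.78 to 6.89. Siglec1 had its lowest second-phase level, 9.24, in library B2, against 9.58 to 9.63.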

How the results depend on the processing

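No paired analysis was possible because the deposited columns carry no replicate numbers. The 105 rest-phase member peaks called in the authors' deposited table became 36 with limma and quantile scaling, 56 with total reads and 51 at an adjusted p under 0.01, and limma with quantile scaling gave 0 to 0 when 1 library was left out. The 60 second-phase peaks became 0 with limma under the quantile, total and authors' scalings, and 0 at an adjusted p under 0.01. With limma they were thus at 0 before a library was left out, and 0 to 0 after. The 80 peaks called between rest and first phase became 47 with the authors' scaling, 51 with group B alone and 59 to 84 without 1 sample, and the 19 genes 5 with the authors' scaling and 14 to 20 without 1 sample. Between second and rest phase, the counts of 0 became 37 peaks and 7 genes without libraries A1 and B1, and 0 to 0 without 1 library. The 17 rest-phase genes became 32 with the authors' scaling and 0 to 12 without 1 library. The cause of these changes was not tested. The other 62 planned and 9 added counts were within 1.5 times the reported ones, among them 146 rest-phase peaks with limma under the authors' scaling. Many of them compare 0 with 0, in the first phase and between second and rest phase, and say little about stability. The split could still change: between rest and first phase, total reads gave 49 peaks higher and 25 lower, against 35 and 45, and group B alone 7 genes higher and 7 lower, against 12 and 7. Between rest-phase groups, the 105 deposited calls were all higher in A. The 36 with quantile scaling were 30 higher in A and 6 higher in B, and the 56 with total reads 48 and 8. Simulated 2-fold changes of peaks were called in 6% of cases between rest-phase groups and in 38% between rest and first phase. They were planted only in peaks above a set mean of reads, and depth was not varied.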
